A study of Mus musculus with 2 samples.

Results

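The Ifit genes (interferon-induced proteins with tetratricopeptide repeats) were examined in unstimulated mouse bone marrow-derived macrophages. Members were taken by name, as every gene of the deposited table whose symbol starts with Ifit and a digit. This gave 6 of 16463 genes: Ifit1, Ifit2, Ifit3 and Ifit3b, and also the Ifit1-like genes Ifit1bl1 and Ifit1bl2. Each of the 2 genotypes had 1 polyadenylated RNA library, made from marrow cells of mice labelled C57BL/6J after 5 days of culture in 10% serum and 10% supernatant of L929 cells, which supplies macrophage colony-stimulating factor. WT denotes mice that carry Lyz2-Cre, in which the lysozyme M gene drives the recombinase in myeloid cells. TKO denotes mice with the same Lyz2-Cre, a floxed mir-17-92 cluster, and loss of the mir-106a-363 and mir-106b-25 microRNA clusters, as labelled. The sources used here give no age, sex or number of mice for either library. With 1 library per genotype no difference has a replicate check, no test was run, and every interval covers counting error only.

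Ifit genes are among the most strongly inducible targets of type I interferon. The receptor for that cytokine signals through the kinases Jak1 and Tyk2 to a transcription factor complex that binds an interferon-stimulated response element (ISRE) near the start of the target gene. The encoded proteins are built of helical repeats that hold RNA or partner proteins. Ifit1 binds messenger RNA caps that lack ribose methylation, as some viral RNAs do, and blocks their translation, whereas Ifit2 and Ifit3 act with other Ifit proteins. Resting macrophages are known to keep a low level of interferon signalling.

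The 6 genes lie side by side on chromosome 19 (GRCm38, GENCODE M21), with no other protein-coding gene between them. Ifit2 (34550694 to 34576419), Ifit3 (34583531 to 34588731), Ifit3b (34607970 to 34613401) and Ifit1 (34640871 to 34650009) are on the plus strand. Ifit1bl1 (34592891 to 34601956) and Ifit1bl2 (34617049 to 34640743) are on the minus strand. Most of each coding sequence sits in a single exon, for example 1204 of 1209 coding bases in both Ifit3 and Ifit3b. The starts of Ifit1bl2 and Ifit1 face away from each other with 127 bases between them.

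The stretches of promoter below are shown because they carry the ISRE core that the members share or lack. Promoter windows came from RefSeq (GRCm38.p6), which held all 6 genes in 9 windows, each before 1 start. Some RefSeq gene boundaries lie further out, such as 34550550 for Ifit2 and 34662981 for Ifit1bl1. With that boundary Ifit1bl1 spans Ifit3b, Ifit1bl2 and Ifit1. Any start without a window was not searched. The 250 bases before each start were searched on both strands for GAAANNGAAA, where N is any base, which reads TTTCNNTTTC on the other strand. Capitals mark a match. Sequences run 5′ to 3′ on the strand of the gene, and the last one on the plus strand.
Ifit3, chr19:34583363-34583462: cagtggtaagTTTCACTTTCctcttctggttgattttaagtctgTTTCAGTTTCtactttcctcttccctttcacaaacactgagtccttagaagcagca
Ifit3b, chr19:34607759-34607858: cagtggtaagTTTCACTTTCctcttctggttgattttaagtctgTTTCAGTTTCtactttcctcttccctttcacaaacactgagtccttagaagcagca
Ifit1bl1, minus strand, chr19:34601983-34602082: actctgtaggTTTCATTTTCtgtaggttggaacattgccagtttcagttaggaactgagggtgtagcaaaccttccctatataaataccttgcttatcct
Between Ifit1bl2 and Ifit1, chr19:34640744-34640870: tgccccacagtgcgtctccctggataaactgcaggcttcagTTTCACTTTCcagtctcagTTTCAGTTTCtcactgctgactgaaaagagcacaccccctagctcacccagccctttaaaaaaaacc

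The Ifit3 and Ifit3b stretches were identical over all 100 bases, and each held 2 matches. Ifit1 and Ifit1bl2 also had 2 matches each, and these are the same bases read from opposite strands: they end 95 and 76 bases before the RefSeq start of Ifit1, and 61 and 42 bases before the RefSeq start of Ifit1bl2 at 34640743. The other Ifit1bl2 window, before a start at 34629811, held none. Ifit1bl1 had 2 matches, 1 in each of its 2 windows, and the one shown belongs to the start at 34601968. The windows of Ifit2 held none, which says only that these letters were not in the 250 bases before the 2 starts that had a window. A match was present in 2.98% of 32851 RefSeq windows, and 2 or more in 0.180%. Of the genes with at least 20 counts in 1 library, 9257 (80.3%) had a promoter window. Among those with a match 44 of 314 (14.0%) were higher in TKO by the size rule given below, against 158 of 8943 (1.77%) without one, and 4 of the 44 are Ifit genes. A match is a description of sequence and was not tested as a binding site.

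The libraries held 10877917 estimated read counts in WT and 10656465 in TKO. Counts are scaled with TMM factors, which correct for library size and composition, and a log2 ratio is TKO over WT. A gene was called higher or lower when it changed at least 2-fold, its 95% interval excluded no change, and it had at least 20 counts in 1 library. All 8 macrophage markers, among them Csf1r, Adgre1 and Cd68, were abundant, with log2 ratios of -0.43 to 0.68. None was called, near the 4.73% called over all genes past the minimum. The libraries differed in other ways. WT had 22 counts and TKO 7629 for H2-L, which belongs to MHC class I. Whether both libraries share the H2 haplotype of the labelled C57BL/6J strain was not tested, so a difference in genetic background and the microRNA genotype cannot be told apart here. Mir17hg, the host gene of the floxed cluster, had 8 counts in WT and 42 in TKO and was called higher. Counts per gene do not separate the floxed part from the rest of the host transcript, so they do not check the genotype labels. Fibroblast markers summed to 92.6 FPKM (fragments scaled to gene length and library size) in WT and 26.3 in TKO. Of 7 past 20 counts 5 were lower, against 265 of all 11525 genes past that minimum. Conventional dendritic cell markers summed to 9.17 and 22.3 FPKM, with 3 of 4 higher, against 2.43% of all genes. Of these 3, Flt3 (10 and 27 counts) and Dpp4 (8 and 22) reached 20 counts only in TKO, while Itgax had 342 and 843. Zbtb46, which defines those cells, had 5 and 3 counts. Plasmacytoid dendritic cell markers summed to 132.8 and 252.7 FPKM, with 1 of 2 past 20 counts higher, against 2.43% of all genes. That marker was Bst2, itself an interferon target, while Tcf4 had 1824 and 1750 counts and was not called. Siglech had 4 and 6 counts, Ccr9 2 and 2, and Ly6d 0 and 1. Sums for B cells were 2.54 and 1.91 FPKM, for T and NK cells 2.38 and 1.29, and for neutrophils 5.74 and 9.18. In whole cultures a change in the number of cells of a type and a change in RNA per cell cannot be told apart, and the part of these differences in the Ifit values was not tested.

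Of the 6 Ifit genes 5 were called higher in TKO and none lower, where 2.43% of 11525 genes past the count minimum were higher and 4.73% changed in either direction. The sixth, Ifit1bl2, was under 20 counts in both libraries. The 5 genes had log2 ratios between 2.40 and 3.25 with a median of 2.53, against a median of 0.0043 over all genes past the minimum. The summed counts of all 6 went from 1464 to 8495, 6.07-fold more (95% interval 5.74 to 6.42). Their levels per length summed to 50.1 FPKM in WT and 304.9 in TKO.

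Ifit3, which binds other Ifit proteins, had the highest level per length in both libraries. It had 440 counts (20.3 FPKM) in WT and 2844 (133.7 FPKM) in TKO. The log2 ratio was 2.76 (2.61 to 2.91). From rank 3783 of all genes by FPKM in WT it stood at rank 527 in TKO, and it made up 40.4% and 43.8% of the summed Ifit FPKM.

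Ifit2, a regulator of translation linked to cell death in infected cells, had the most counts of the family, 584 in WT and 3127 in TKO. Its transcript is the longest, so per length it came after Ifit3, at 13.5 and 73.7 FPKM. The difference was 5.60-fold (5.13 to 6.13). No window of 50 bases in its transcript occurred in a transcript of another gene, so its counts depend least on how reads were divided among copies.

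Counts of Ifit1, the sensor of incompletely methylated caps, were 289 in WT (10.0 FPKM) and 1599 in TKO (56.7 FPKM). Its log2 ratio was 2.53 (2.35 to 2.72), close to that of Ifit2. It ranked after Ifit3 and Ifit2 in level in both libraries, and the counting intervals of Ifit3, Ifit2 and Ifit1 did not overlap in either.

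Ifit3b, a near copy of Ifit3, had 52 counts (2.37 FPKM) in WT and 473 (22.1 FPKM) in TKO. This 9.52-fold difference (7.14 to 12.9) was the largest of the family, and 25 of the 11525 genes had a larger log2 ratio, 10 of them with symbols that start with H2. The Ifit3 and Ifit3b transcripts were 98.0% identical over 1697 aligned bases. Of the 50-base windows of Ifit3, 51.2% also occurred in Ifit3b, and 31.7% of the 100-base windows did. The division of reads between them therefore rests on the remaining differences in sequence. Ifit3b took 10.6% of the pair's counts in WT (exact binomial 95% interval 7.99% to 13.6%) and 14.3% in TKO (13.1% to 15.5%). The counts of the pair together were 492 and 3317, which is 7.06-fold more in TKO (6.42 to 7.77).

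Ifit1bl1, whose function is less studied, had 86 counts (3.57 FPKM) in WT and 435 (18.3 FPKM) in TKO, 5.29-fold more (4.19 to 6.75). In WT it was the fourth gene in level and Ifit3b the fifth, and in TKO the order was the other way round. The counting intervals of these genes overlapped in WT, at 2.86 to 4.41 FPKM for Ifit1bl1 and 1.77 to 3.11 for Ifit3b. In TKO they were 16.6 to 20.1 and 20.1 to 24.2 FPKM and met at their edges. Overlap of such intervals does not decide whether the WT order of this pair lies within counting error, and their levels were not compared directly.

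Ifit1bl2 was the exception. It had 13 counts (0.36 FPKM) in WT and 17 (0.47 FPKM) in TKO, a ratio of 1.37 with an interval of 0.63 to 3.06. Both libraries were low and their counting intervals overlapped, so a difference was not detectable at this depth. In the authors' deposited table its log2 ratio was 0.38, and those of the other 5 genes were 2.36 to 3.22. Ifit1bl2 lies between Ifit3b and Ifit1. Its start at 34640743 shares the 2 ISRE matches shown above with Ifit1, whereas its other promoter window held none. Its transcript was 90.5% identical to that of Ifit1bl1, but 9.34% of its 50-base windows occurred in any other gene. Ifit1 shared the most, 5.55% of the 50-base windows of Ifit1bl2.

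**Figure D1:**
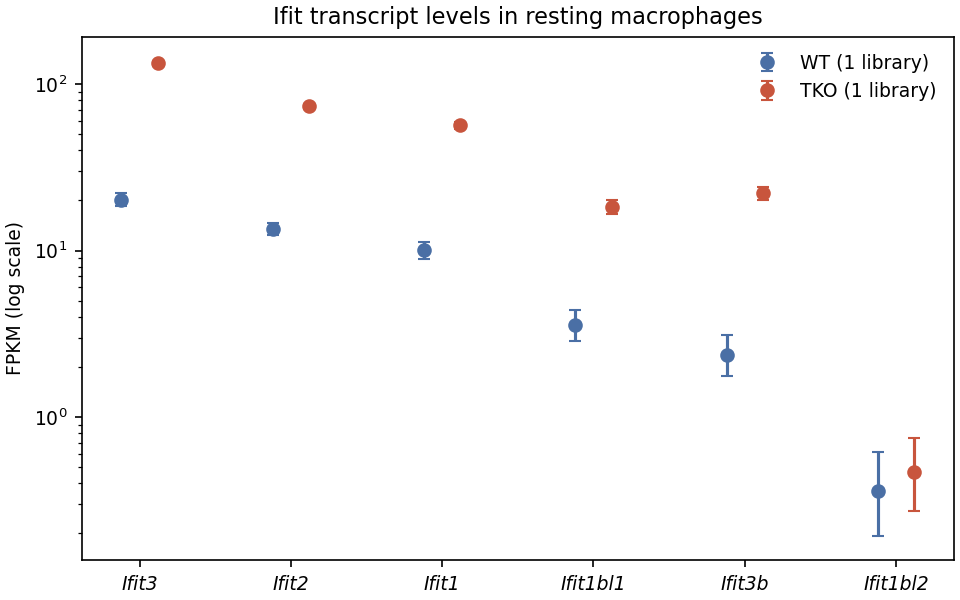
Level of each Ifit gene in FPKM (log axis) in the WT and TKO libraries, ordered by the WT level, with bars for the exact Poisson 95% interval of the count. The TKO points of Ifit3, Ifit2, Ifit1, Ifit1bl1 and Ifit3b lie at 18.3 to 133.7 FPKM and their WT points at 2.37 to 20.3. Each TKO point lies above the WT point of the same gene, while the bars of Ifit1bl2 overlap.

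**Figure D2:**
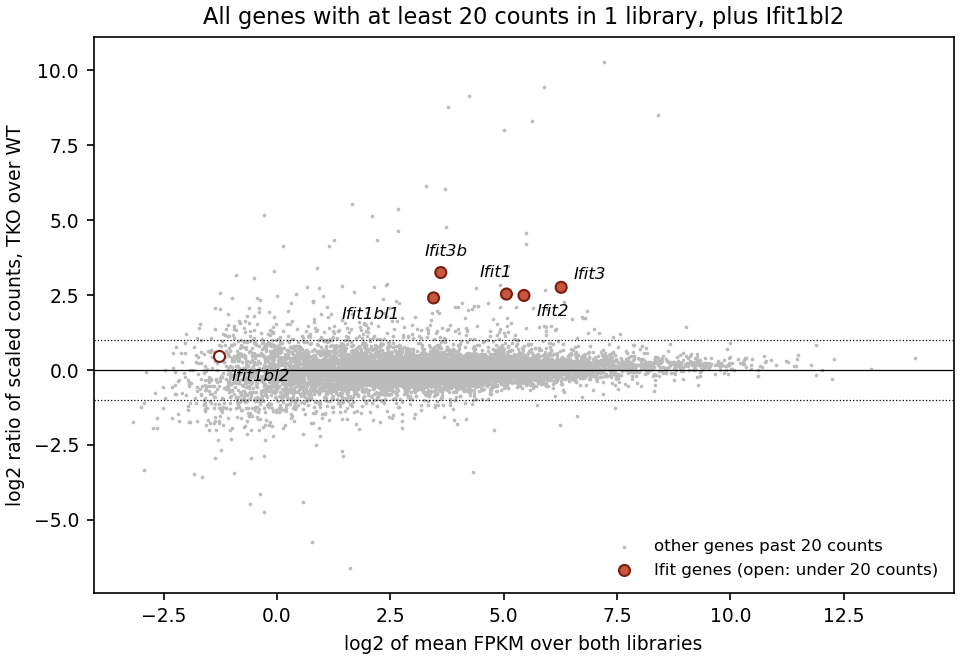
Log2 ratio of scaled counts against log2 mean FPKM for each gene past 20 counts (grey; a count of 0 is set to 3 counts) and the Ifit genes (red), with dotted lines at 2-fold. The 5 filled Ifit points lie between 2.40 and 3.25, above most genes of like level, and the open point of Ifit1bl2 lies at 0.45.

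Whether the Ifit genes differed by the same factor can be asked without any scaling, from the ratio of 2 genes' counts in each library. Over the 10 pairs of the 5 called genes, 5 intervals excluded an equal factor at the 95% level. Ifit3b had a larger factor than each of the other 4, from 1.41 times that of Ifit3 (1.03 to 1.95) to 1.80 times that of Ifit1bl1 (1.23 to 2.65). These intervals treat the counts of each gene as separate and leave out error in dividing reads between Ifit3 and Ifit3b. Its part in the factors of Ifit3b was not tested. Ifit3 exceeded Ifit2 by 1.21 times (1.05 to 1.38). At a 99.9% level 1 of the 10 intervals, that of Ifit3b over Ifit2, excluded an equal factor. The factors of Ifit1 and Ifit2 differed by 1.03 times, with an interval of 0.88 to 1.21. Against Ifit1bl2 the 5 called genes had factors 3.85 to 6.91 times larger, and for Ifit1, which starts beside it, the value was 4.23 (1.87 to 9.35). These 5 intervals excluded an equal factor at the 95% level, on the few counts of Ifit1bl2. At the 99.9% level that of Ifit1bl1 over Ifit1bl2 (0.94 to 14.8) did not. All 5 also leave out error in dividing reads between Ifit1bl2 and genes that share sequence with it, Ifit1 most of all. The part of that error in these values was not tested.

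The genes measured around the cluster had smaller log2 ratios. RefSeq places 21 other genes within 500 kb of the outermost Ifit genes, of which 10 are in the table and 7 had at least 20 counts in 1 library. None of the 7 was called, which is near the 4.73% called over all genes. Lipa, the lysosomal acid lipase gene and the nearest protein-coding neighbour of Ifit2, had a log2 ratio of -0.11 (-0.14 to -0.07) on 13143 counts in WT and 11659 in TKO. On the other side Pank1, a coenzyme A synthesis enzyme, had 0.21 (-0.12 to 0.55) and Kif20b, a mitotic kinesin, -0.14 (-0.26 to -0.02). Acta2, smooth muscle actin and also a mesenchymal marker, had the largest absolute value, -0.85 (-1.05 to -0.65). Stambpl1, a deubiquitinase, had 0.52, Lipn, a lipase, -0.48 and Fas, a death receptor, -0.46 with an interval from -0.98 to 0.06. Ch25h, an interferon-inducible sterol enzyme, had 17 and 12 counts and was under the minimum.

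**Figure D3:**
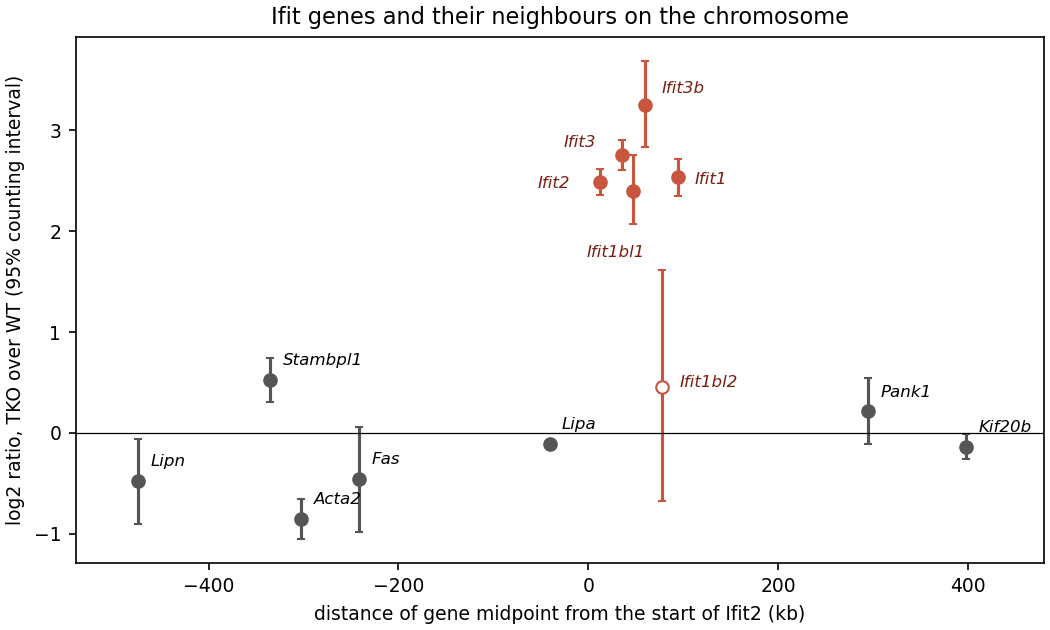
Log2 ratio, TKO over WT, with its 95% counting interval for the Ifit genes (red; open where both counts are under 20) and for neighbours with at least 20 counts in 1 library (grey), by the distance of the gene's midpoint from the start of Ifit2 in kb. Neighbours lie between -0.85 and 0.52, and the 5 called Ifit genes between 2.40 and 3.25.

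Along the interferon pathway, receptor and kinase genes had log2 ratios between -0.44 and 0.21 while some transcription factor genes and several target genes were higher in TKO. The 20 listed interferon genes themselves have no row in the table and were not analysed here. None of 8 receptor and kinase genes was called, near the 4.73% of all genes, and their median log2 ratio was -0.02. Ifnar1, a chain of the type I interferon receptor, had 2538 and 1784 counts (-0.44), Ifngr2, of the interferon gamma receptor, had 0.21, Il10rb 0.17 and the kinase gene Jak2 -0.17.

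Among the transcription factors, Irf7, which amplifies interferon responses, was 4.80-fold higher, from 557 to 2556 counts. Stat2, an activator of ISRE-driven genes, was 2.80-fold higher, from 870 to 2326 counts. Irf9, its DNA-binding partner, went from 859 to 1420 counts, and its log2 ratio of 0.79 did not reach the size rule. The most abundant factor, Irf5, had -0.05.

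Negative regulators were divided, with 3 of 8 higher, against 2.43% of all genes, and a median of 0.45. Usp18, which restrains the interferon receptor, was 4.34-fold higher and Isg15, a ubiquitin-like modifier, 4.09-fold higher. Socs1, an inhibitor of JAK kinases, was 2.44-fold higher on 12 and 28 counts. Socs3 had 0.53 and Ptpn6, a phosphatase and the most abundant of the list, 0.26, and neither was called.

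Among 14 nucleic acid sensors and adaptors 4 were higher, against 2.43% of all genes, and none lower, with a median of 0.28. Zbp1, which recognises left-handed double helices, was 6.42-fold higher. The cytosolic RNA sensors Dhx58, Ddx58 (RIG-I) and Ifih1 (MDA5) were 2.67-fold, 2.43-fold and 2.35-fold higher. The most abundant, the endosomal RNA receptor Tlr7, stood at -0.17 on the log2 scale.

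Other antiviral genes that act on RNA, translation or virus particles had 11 of 19 members higher, against 2.43% of all genes, none lower and a median of 1.15. Mx1, a dynamin-like GTPase, was 5.78-fold higher, from 96 to 530 counts, which is within the range of the Ifit genes. Rsad2 (viperin), Oasl2 and Oasl1 were 4.26-fold, 3.87-fold and 3.73-fold higher, and Bst2 (tetherin), the most abundant, 2.15-fold. Members of this list such as the Oas1 genes are close paralogs, and their division of reads is uncertain.

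Other lists hold genes that make or bind messenger RNA caps and translation factors that Ifit proteins are known to contact. Of 11 cap enzymes and cap-binding genes none was called, near the 4.73% of all genes, with a median of -0.06. Cmtr1, the enzyme that adds the ribose methylation of caps and is itself interferon-inducible, had a log2 ratio of 0.33 (0.21 to 0.46) on 962 and 1158 counts. Dcp2, a decapping enzyme, had -0.47, Pcif1, a cap methyltransferase, -0.24, and Fam103a1, which activates the cap guanine methyltransferase and was the most abundant, 0.21. Of 16 eIF3 and cap-binding initiation factors none was called, again near 4.73%, and the median was 0.08. Eif3c and Eif3e, subunits bound by Ifit proteins, both had 0.08, and the largest absolute value was 0.35, for Eif3k. Eif4a1, the most abundant, had 0.23.

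The Ifitm genes share part of the name but encode small membrane proteins that act on virus entry. Of 7 measured, 4 passed the minimum, and 1 was higher, against 2.43% of all genes, with a median log2 ratio of 0.87. That gene, Ifitm1, had 13 and 27 counts. Ifitm3, the most abundant, had 719.4 FPKM in WT and 1316.8 in TKO, a log2 ratio of 0.91 (0.86 to 0.96) just under the threshold.

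**Figure D4:**
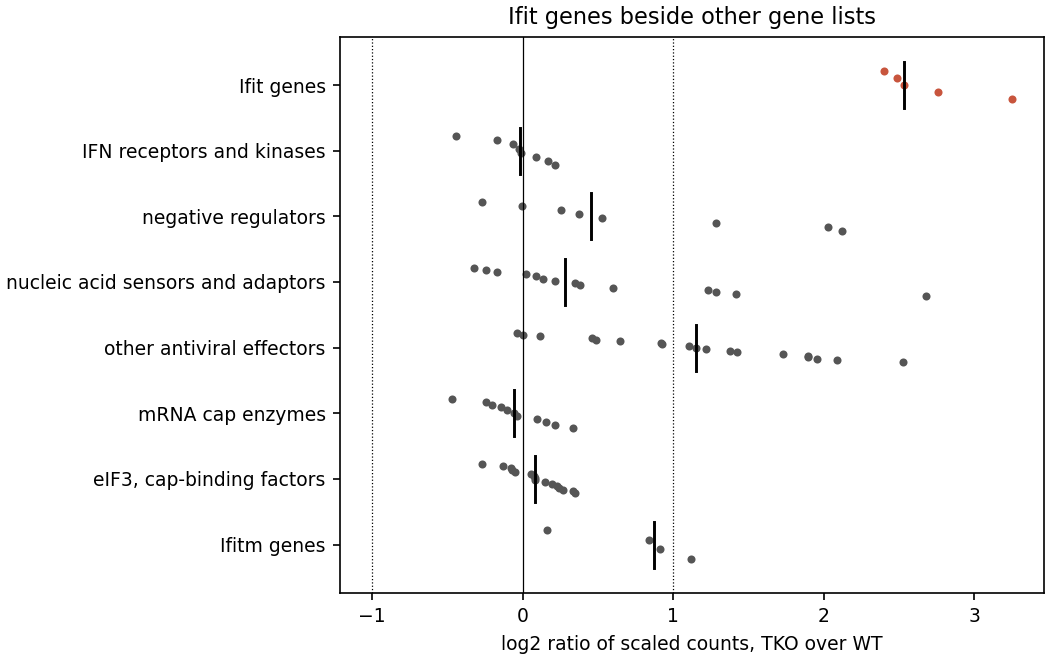
Log2 ratio, TKO over WT, of each gene past 20 counts in the Ifit family (red) and in 7 other lists (grey), with a black bar at each median and dotted lines at 2-fold. The Ifit median lies at 2.53 and the next highest, that of other antiviral effectors, at 1.15.

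Among named genes with at least 100 counts in each library, the 5 whose log2 ratio lay nearest to the Ifit median were Zbp1 (2.68), Ms4a4c (2.74), Irf7 (2.26), Phf11b (2.22) and H2-T24 (2.85). Mx1 (2.53) lay nearer to that median but was left out by this minimum, with 96 counts in WT. Ifit3b (52 counts in WT) and Ifit1bl1 (86) would also fall under it. Likeness here is the distance between log2 ratios from a single pair of libraries.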

How the data were processed

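The members, lists and size rule were chosen with earlier results of these data known. The submitters' processing notes name Bowtie2 2.2.5, HISAT2 2.0.4, RSEM 1.2.12 and the mm10 build without saying what each did. No source used here gives the annotation, filters, read length or strand setting. Expected counts per gene, deposited by the authors, were rounded to whole numbers. The deposited FPKM values are scaled for length and depth per the file headers, with 0 counts listed at 0.01. The authors' deposited log2 ratio is that of TKO over WT FPKM. The test behind the authors' p-value is not given, and that p-value was not used. The deposited FDR, a score here since 713 values are above 1, was not used either. There were 0 unmatched columns of sample values.

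Counts were scaled by TMM (edgeR 4.0.16, R 4.3.3). Ratios had no pseudocount, and their intervals are exact conditional binomial (Clopper-Pearson), those of single counts exact Poisson. A count of 0 was set to 3 in ratios. Intervals for pairs of genes are exact conditional odds ratios (scipy 1.17.1). Without molecular identifiers, PCR copies of a molecule are counted as separate reads. Shared windows were searched on both strands of GENCODE M21 transcripts, using the longest of each Ifit gene, and identity came from global alignment (Biopython 1.88). Alternatives were other scalings (library totals, DESeq2 1.42.0), a log2 of FPKM with 1 added, no count minimum or 100 counts, a 1.5-fold or 4-fold threshold, a 99.9% interval and removal of the trend with gene length. Sums over copies, other than Ifit3 plus Ifit3b, were added after the data were seen. Named were all Ifit genes, up to 4 members of each list with the largest absolute ratio and the most abundant one, neighbours past the minimum, and the 5 genes nearest in ratio. A listed transcription factor is not reported here, nor are counts or a median over its list. The cell markers, H2-L, Mir17hg, Zbtb46, Siglech, Ch25h, Eif3c and Eif3e were named after their values were seen.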

Additional observations from a re-analysis of the deposited data

How the results depend on the processing

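The number of Ifit genes called higher was 5 under each of the 9 alternatives that were run, and 4 when only Ifit1, Ifit2, Ifit3 and Ifit3b were counted. Log2 ratios ranged from 2.39 to 2.53 for Ifit1, 2.08 to 2.40 for Ifit1bl1, 2.36 to 2.55 for Ifit2, 2.66 to 2.76 for Ifit3 and 2.78 to 3.25 for Ifit3b. Ifit3b left its counting interval with log2 of FPKM plus 1, at 2.78, where the added 1 shrinks low values, and Ifit3b alone (3.25) lay above the interval of its sum with Ifit3. The background count of genes higher and lower moved more: 213 and 122 with log2 of FPKM plus 1, 164 and 95 with a minimum of 100 counts, 591 and 636 at 1.5-fold, 76 and 26 at 4-fold, and 223 and 175 with a 99.9% interval. The share of higher among called genes was 51.4%, against 63.6% with FPKM, 63.3% with 100 counts and 74.5% at 4-fold. It was 47.3% when scaled by library totals (262 higher and 292 lower), 49.5% with DESeq2 size factors (271 and 276) and 48.2% at 1.5-fold, so that lower calls were then the more numerous. Of the 10 pairs of the 5 called Ifit genes, 4 no longer excluded an equal factor with the 99.9% interval, nor did Ifit1bl1 over Ifit1bl2. No paired analysis was possible because each genotype has 1 library. Depth limits Ifit1bl2, whose 13 and 17 counts could not separate a difference of up to 3.06-fold from none.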
